A study of Mus musculus with 10 samples.

Results

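The Notch genes described here were the ligands *Dll4*, *Jag1* and *Jag2*, the receptors *Notch1*, *Notch2*, *Notch3* and *Notch4*, and the target genes *Hey1*, *Heyl* and *Hes1*. They were listed by symbol, with earlier results of these data known, and were 10 of the 27267 genes listed in the expression table. All 10 members passed the filter on low values, set at a mean of 10 normalized counts, as did 13714 genes in all. The study asked how gene expression in brown fat differs when matrix Gla protein (MGP), a secreted inhibitor of bone morphogenetic proteins, is missing. Bulk RNA-seq was made of interscapular brown adipose tissue (iBAT), the thermogenic fat depot between the shoulder blades. The 5 wild-type and 5 *Mgp*-KO libraries were labelled as C57BL/6 males of 4 weeks, and the *Mgp*-KO mice carried a global deletion, which is not limited to a cell type. The paper describes all mice as fed standard chow. No other allele or treatment was given for either group, and the paper describes the libraries as coming from pairs of male mice.

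Notch signaling passes between touching cells. A ligand of the Delta-like or Jagged family on one cell binds a Notch receptor on its neighbour, the receptor is cleaved, and its intracellular domain enters the nucleus, where it joins the DNA-binding protein RBPJ and Mastermind-like coactivators to switch on repressors of the HES and HEY families. In blood vessels *Dll4* is carried by arterial and sprouting capillary endothelium, *Notch1* and *Notch4* by endothelium, and *Notch3* and *Heyl* by the mural cells (pericytes and smooth muscle) that wrap it, while *Notch2* and *Jag1* are used by many cell types. In fat, Notch activity is known to restrain the thermogenic program of adipocytes.

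Values are normalized counts, which are reads per gene divided by a size factor for each library. Reads counted on genes ranged from 19616366 to 22252260 in replicates 1 to 3 of both groups and from 9253793 to 13281873 in replicates 4 and 5, and these sets also differed in the share of mitochondrial ribosomal RNA (0.771% to 1.72% against 6.50% to 16.7%). *Mgp* had 466 to 1146 normalized counts in wild type and at most 1 read in *Mgp*-KO 1, 2 and 3, but 500 and 331 normalized counts in *Mgp*-KO 4 and 5, which goes against the labels of those 2 libraries, and the group is therefore called the labelled *Mgp*-KO libraries. In these 2 libraries *Ucp1*, the uncoupling protein of thermogenesis, had 12320 and 15640 normalized counts, below every wild-type library (38420 to 116000), as it did in *Mgp*-KO 1 to 3 (2201 to 11900). Wild type 2 had a high level of *Xist*, which is transcribed from the inactive X chromosome, and 3.74 normalized counts summed over Y-linked genes, against a label of male. Values of a group are listed in the order of replicates 1 to 5, and the genotype difference of each member on normalized counts is given for all 10 libraries and within replicates 1 to 3 and replicates 4 and 5. All 10 brown adipocyte markers checked were detected, with *Ucp1* at 60880 ± 32190 in wild type and 10200 ± 5064 in the labelled *Mgp*-KO libraries (SD, n = 5 each).

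The members with the largest differences between the groups were *Dll4*, *Notch4* and *Notch1*, and their promoters are shown to place them in the genome. Promoter sequences of 7 members were matched in the RefSeq table (build GRCm38.p6), and *Hey1*, *Heyl* and *Hes1* were not among them. The first 280 bases of each window are printed, from 250 bases before the annotated start to 30 bases after it, 5′ to 3′ on the strand of the gene, and capitals mark matches to CACNAG, a site bound by HES and HEY repressors. The windows are chr2:119325534-119325813 on the plus strand for *Dll4*, chr17:34564045-34564324 on the plus strand for *Notch4* and chr2:26503793-26504072 on the minus strand for *Notch1*.
Dll4: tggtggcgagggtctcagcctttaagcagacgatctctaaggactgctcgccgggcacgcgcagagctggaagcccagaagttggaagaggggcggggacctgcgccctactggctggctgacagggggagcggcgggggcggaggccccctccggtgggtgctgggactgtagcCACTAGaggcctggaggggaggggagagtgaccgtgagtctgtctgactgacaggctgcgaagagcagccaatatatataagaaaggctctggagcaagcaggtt
Notch4: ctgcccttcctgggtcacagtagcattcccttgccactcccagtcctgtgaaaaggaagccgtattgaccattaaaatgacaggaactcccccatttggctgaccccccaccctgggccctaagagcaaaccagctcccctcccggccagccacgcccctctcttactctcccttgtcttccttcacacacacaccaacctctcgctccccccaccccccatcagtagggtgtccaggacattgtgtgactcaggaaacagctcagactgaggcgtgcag
Notch1: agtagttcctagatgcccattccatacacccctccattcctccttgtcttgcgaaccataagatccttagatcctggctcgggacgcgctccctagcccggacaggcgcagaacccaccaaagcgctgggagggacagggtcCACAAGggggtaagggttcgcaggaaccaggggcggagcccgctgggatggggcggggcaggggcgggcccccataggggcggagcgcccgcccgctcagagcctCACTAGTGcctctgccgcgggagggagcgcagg

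Over windows of 300 bases and both strands, CACNAG was found in the promoters of *Dll4*, *Notch1*, *Notch2* and *Notch3* and not in those of *Notch4*, *Jag1* and *Jag2*. It stands in 42.5% of all 32851 promoters of the table. In *Notch1*, matches on both strands overlap at the start site, and in *Dll4* the match begins 75 bases before it. None of the 7 windows held the RBPJ motif GTGGGAA (6.38% of all promoters), its core TGGGAA (25.6%, which includes every match to the longer motif) or the E-box CACGTG (7.15%). These matches describe letters in the windows and are not measured binding sites. By the GENCODE annotation of GRCm38 (mm10), *Dll4* lies at chr2:119325784-119335962, *Notch4* at chr17:34564268-34588503 and *Notch1* at chr2:26457903-26516663, so that the *Notch1* window lies inside the annotated gene.

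In limma over all 10 libraries, 0 of the 10 members passed an adjusted p (Benjamini-Hochberg over 13714 genes) of 0.05, where 9 genes (0.0656% of those tested) passed. At an unadjusted p under 0.05, 3 members were higher in the labelled *Mgp*-KO libraries, *Dll4*, *Notch1* and *Notch4*, and 0 lower, beside 10.4% of all tested genes in either direction. By edgeR 0 members passed the adjusted threshold (0.0219% of genes did), and by DESeq2, the tool of the study's methods, 1 member passed, *Dll4*, beside 2.26% of all genes. Fold changes on the log2(normalized count + 1) scale were above 0 for 8 of the 10 members, with a median of 0.46, while 52.7% of all tested genes lay above 0, with a median of 0.03. The plot of values by library shows the separation of each member.

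**Figure D1:**
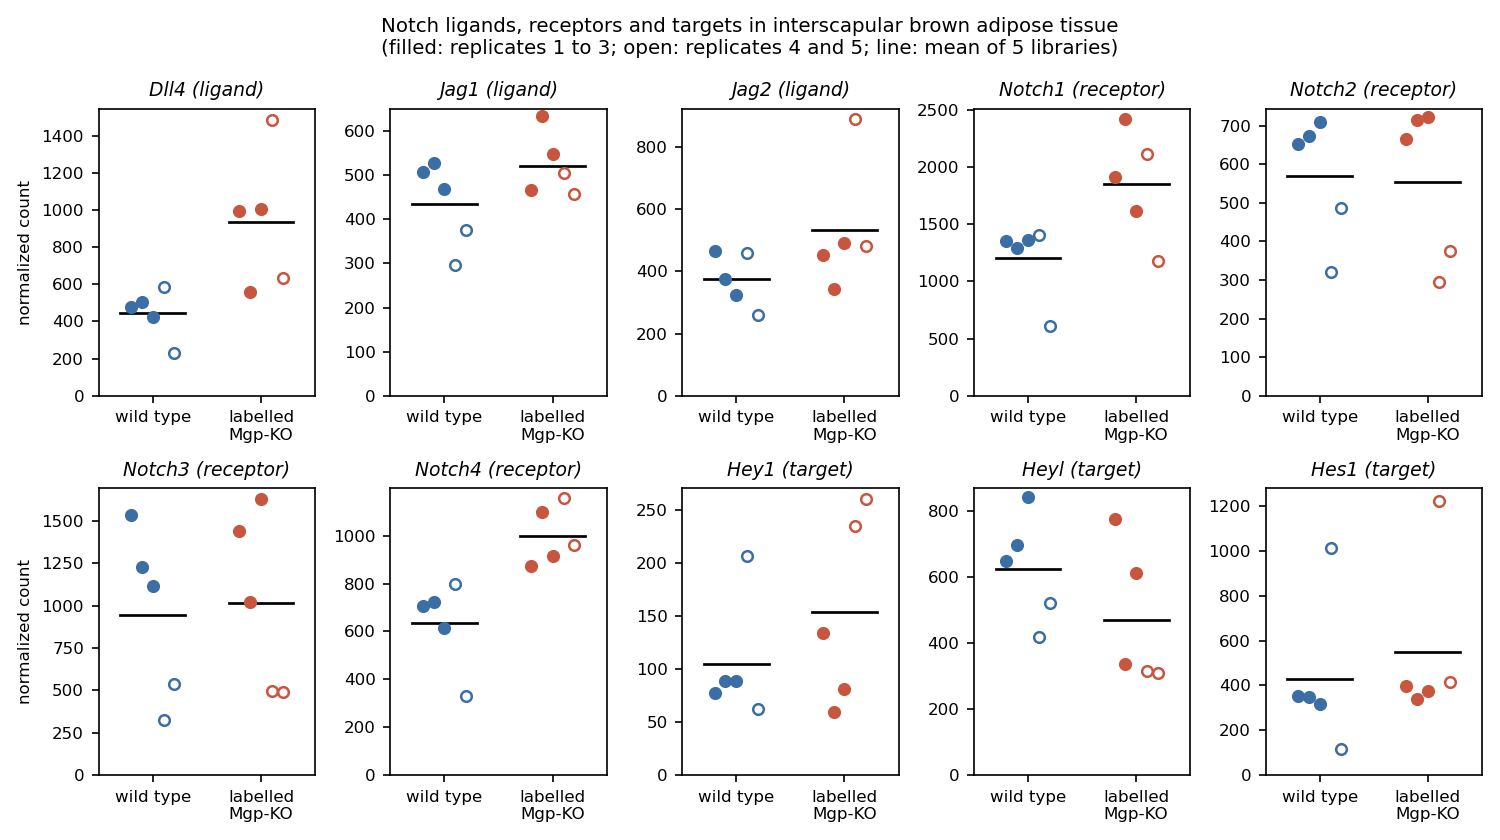
Normalized counts (vertical axes, each starting at 0) of the 10 Notch genes in wild-type libraries and labelled *Mgp*-KO libraries. Each point is 1 library, filled for replicates 1 to 3 and open for replicates 4 and 5, and lines are means of 5 libraries. The groups are apart for *Notch4*, overlap by 1 pair of libraries for *Dll4*, and overlap broadly for *Notch2* and *Notch3*.

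*Dll4*, the Delta-like ligand that limits the number of tip cells in growing capillaries, had the largest difference among the ligands. Its normalized counts in wild type 1 to 5 were 476, 507, 423, 585 and 230. Those of the labelled *Mgp*-KO libraries were 994, 558, 1005, 1484 and 637. Of the latter, 4 of 5 lay above every wild-type library, and the groups overlapped only because wild type 4 lay above *Mgp*-KO 2. The means were 444 ± 133 and 936 ± 368 (SD, n = 5 each), a ratio of 2.11, and the log2 fold change was 1.05 (SE 0.31, adjusted p = 0.233 by limma). An exact permutation test (two-sided, on log2 means) gave p = 0.0159, where the smallest p for 5 against 5 is 0.00794. With DESeq2 on the recovered reads, the log2 fold change was 1.07 (SE 0.33, adjusted p = 0.0487). Whether *Dll4* is called as changed therefore depended on the test. It also depended on a block for the replicate number, with which the adjusted p was 0.0404 by limma and 0.0454 by edgeR. The log2 fold change of *Dll4* lay between 0.61 and 1.40 over the 30 other settings tried. *Dll4* is also a gene that the study itself reported as increased in *Mgp*-KO from these libraries, so its difference is not independent evidence.

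Within replicates 1 to 3, the *Dll4* groups did not overlap, with 423 to 507 in wild type and 558 to 1005 in *Mgp*-KO. The log2 fold change there was 0.81 (SE 0.23, adjusted p = 0.105 by limma). Within replicates 4 and 5 the values were 230 and 585 against 637 and 1484, again without overlap, with a log2 fold change of 1.40 (SE 0.58, adjusted p = 0.679 by limma). Non-overlap with higher values in *Mgp*-KO was common at these group sizes, in 15.5% of all tested genes in replicates 1 to 3 and in 20.3% in replicates 4 and 5. Leaving out both labelled *Mgp*-KO libraries in which *Mgp* was read gave 0.95 (SE 0.32, adjusted p = 0.160), in a comparison that keeps wild type 4 and 5 and so is not balanced by set. A processed transcript on the opposite strand, *Gm14207*, shares 214 exon bases with *Dll4* and had 6.92 to 77.7 normalized counts, and the strand setting of the counting was not found.

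*Jag1*, the Jagged ligand used between endothelium, mural cells and many progenitors, had overlapping values in the groups. Wild type 1 to 5 had 508, 527, 468, 296 and 375.5 normalized counts, and the labelled *Mgp*-KO libraries had 466, 634, 548, 505 and 457. The means were 435 ± 97.1 and 522 ± 72.3 (SD, n = 5 each) and the log2 fold change was 0.28 (SE 0.20, adjusted p = 0.661 by limma), with 0.12 (SE 0.14) in replicates 1 to 3 and 0.53 (SE 0.32) in replicates 4 and 5. Without wild type 4 it was 0.15 (adjusted p = 0.783). The 3 *Mgp*-KO libraries of replicates 1 to 3 overlapped the wild-type ones, while in replicates 4 and 5 both labelled *Mgp*-KO libraries lay above both wild-type libraries, as for 20.3% of all tested genes.

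*Jag2*, the other Jagged ligand, had 464, 375, 324, 459 and 260 normalized counts in wild type 1 to 5. The labelled *Mgp*-KO values were 453, 345, 491, 892 and 481. One library, *Mgp*-KO 4, stood far above the rest. Over all libraries the log2 fold change was 0.46 (SE 0.26, adjusted p = 0.586 by limma), made up of 0.15 (SE 0.19) in replicates 1 to 3 and 0.92 (SE 0.45) in replicates 4 and 5. Without *Mgp*-KO 4 it was 0.25 (adjusted p = 0.703).

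The balance of the ligands differed between libraries. The ratio of *Dll4* to *Jag1* normalized counts was 0.938, 0.962, 0.904, 1.98 and 0.613 in wild type 1 to 5. The labelled *Mgp*-KO libraries had ratios of 2.13, 0.879, 1.84, 2.94 and 1.39. The groups crossed through wild type 4, which was high, and *Mgp*-KO 2, which was low. Against *Jag2*, *Dll4* stood at a ratio of 0.887 to 1.35 in wild type and 1.32 to 2.19 in the labelled *Mgp*-KO libraries, with an overlap of wild type 2 and *Mgp*-KO 5 only.

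Among the receptors, *Notch4*, a receptor largely restricted to endothelium, was the member whose groups did not overlap over all 10 libraries. It had 707.5, 721, 614, 799 and 330.5 normalized counts in wild type 1 to 5. The labelled *Mgp*-KO libraries had 871, 1097, 916, 1157 and 961. Every library of the latter group lay above every wild-type library, which held for 1.39% of all tested genes in this direction. The means were 634 ± 182 and 1000.5 ± 122 (SD, n = 5 each), a ratio of 1.58. The log2 fold change was 0.71 (SE 0.24, adjusted p = 0.297 by limma), and the exact permutation test (two-sided) gave p = 0.00794, the smallest that 5 against 5 can give. In replicates 1 to 3 the log2 fold change was 0.49 (SE 0.13, adjusted p = 0.0905), and in replicates 4 and 5 it was 1.04 (SE 0.46, adjusted p = 0.679). Wild type 5 was the lowest library and weighed on the size, since without it the log2 fold change was 0.49 (adjusted p = 0.466).

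*Notch1*, the receptor through which *Dll4* acts in sprouting endothelium, had 1351, 1293, 1361, 1406 and 607 normalized counts in wild type 1 to 5. *Mgp*-KO 1 to 5 had 1915, 2420, 1620, 2117 and 1175. The groups were apart except for *Mgp*-KO 5, which lay below 4 wild-type libraries, and wild type 5 was again the lowest of all. With means of 1204 ± 336 and 1849.5 ± 477 (SD, n = 5 each), the ratio was 1.54 and the log2 fold change 0.64 (SE 0.28, adjusted p = 0.446 by limma). The exact permutation test (two-sided) gave p = 0.0476 before any adjustment for the 10 members. In replicates 1 to 3 the groups did not overlap, as for 15.5% of all tested genes in this direction. The log2 fold change there was 0.55 (SE 0.16, adjusted p = 0.1002), and within replicates 4 and 5 it was 0.77 (SE 0.50, adjusted p = 0.687). Without wild type 5 the log2 fold change over the remaining libraries was 0.41 (adjusted p = 0.722). Opposite transcripts, *0610009E02Rik* and *Gm13568*, share 1068 and 414 exon bases with *Notch1* and had at most 21.4 and 5.35 normalized counts.

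DESeq2 on replicates 1 to 3 alone called *Dll4* (0.85, adjusted p = 0.00977), *Notch1* (0.56, adjusted p = 0.0322) and *Notch4* (0.49, adjusted p = 0.0417) as higher in *Mgp*-KO. In that fit 4.59% of all genes were called higher. The same libraries tested with limma gave 0 members past the threshold, beside 3.54% of all genes in either direction, and these 3 members at an unadjusted p under 0.05, beside 22.0%. Without the libraries labelled *Mgp*-KO 4 and 5, *Notch1* had a log2 fold change of 0.76 (SE 0.29, adjusted p = 0.204 by limma) and *Notch4* of 0.65 (SE 0.28, adjusted p = 0.243). Without wild type 2, whose *Xist* and Y-linked reads go against its label, limma gave 1.11 for *Dll4*, 0.77 for *Notch4* and 0.68 for *Notch1* (adjusted p = 0.375, 0.416 and 0.584).

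*Notch2*, a broadly expressed receptor, did not differ beyond its spread. It had 652, 672, 709, 321 and 488 normalized counts in wild type. The labelled *Mgp*-KO values were 666, 715, 723, 295 and 374. The values of replicates 1 to 3 lay close together in both groups, and those of replicates 4 and 5 were lower in both. Limma gave a log2 fold change of −0.07 (SE 0.31, adjusted p = 0.963), with 0.05 (SE 0.11) in replicates 1 to 3 and −0.25 (SE 0.36) in replicates 4 and 5.

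*Notch3*, the receptor of vascular smooth muscle and pericytes, had 1534, 1226, 1114, 325 and 535 normalized counts in wild type 1 to 5. *Mgp*-KO 1 to 5 had 1443, 1020, 1629, 494 and 489. In both groups the values of replicates 4 and 5 were below every value of replicates 1 to 3. The log2 fold change was 0.13 (SE 0.48, adjusted p = 0.955 by limma), with 0.06 (SE 0.20) in replicates 1 to 3 and 0.24 (SE 0.36) in replicates 4 and 5. An antisense transcript, *Gm17276*, shares 488 exon bases with *Notch3* and had up to 54.2 normalized counts.

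The target genes, which encode basic helix-loop-helix repressors, showed no common direction. *Hes1*, a target in most Notch-responsive cells, had 351, 347, 316, 1013 and 118 normalized counts in wild type 1 to 5. The values labelled *Mgp*-KO were 397, 339, 375, 1225 and 416. Replicate 4 was the highest library in each group, and the groups overlapped throughout. In limma its log2 fold change was 0.50 (SE 0.51, adjusted p = 0.792), with 0.13 (SE 0.12) in replicates 1 to 3 and 1.04 (SE 0.99) in replicates 4 and 5. Single libraries decided its size, since it was 0.11 without wild type 5, 0.16 without *Mgp*-KO 4 and 0.89 without wild type 4 (adjusted p = 0.957, 0.939 and 0.489).

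*Hey1*, a target of Notch in arterial endothelium, was the member with the fewest reads, from 36 to 222 a library. Its normalized counts were 77.3, 88.4, 88.2, 207 and 62.3 in wild type 1 to 5. *Mgp*-KO 1 to 5 had 133, 59.7, 81.3, 235 and 260. The highest values came from replicates 4 and 5, and the groups overlapped. The log2 fold change was 0.47 (SE 0.44, adjusted p = 0.771 by limma), with 0.03 (SE 0.29) in replicates 1 to 3 and 1.11 (SE 0.58) in replicates 4 and 5. Leaving out single libraries gave values from 0.22 (without *Mgp*-KO 5) to 0.75 (without *Mgp*-KO 2).

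*Heyl*, a target expressed in vascular smooth muscle and pericytes, was the one target with lower values. It had 648, 696, 843, 418 and 523 normalized counts in wild type 1 to 5. The labelled *Mgp*-KO libraries had 776, 336, 613, 316 and 310, of which 3 lay below every wild-type library. Its log2 fold change was −0.48 (SE 0.30, adjusted p = 0.614 by limma), and it was below 0 in both sets, −0.42 (SE 0.29) in replicates 1 to 3 and −0.58 (SE 0.32) in replicates 4 and 5. Without both labelled *Mgp*-KO libraries in which *Mgp* was read, it was −0.16 (SE 0.30, adjusted p = 0.793). On the same 8 libraries, limma gave 0.71 for *Notch3* (SE 0.47, adjusted p = 0.440), 0.36 for *Jag1*, 0.21 for *Jag2*, 0.36 for *Notch2*, 0.12 for *Hes1* and −0.13 for *Hey1*. These 8 libraries hold wild type 4 and 5 but no *Mgp*-KO library of that set, so genotype and set are mixed in these values, and the values within replicates 1 to 3 are the balanced ones.

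**Figure D2:**
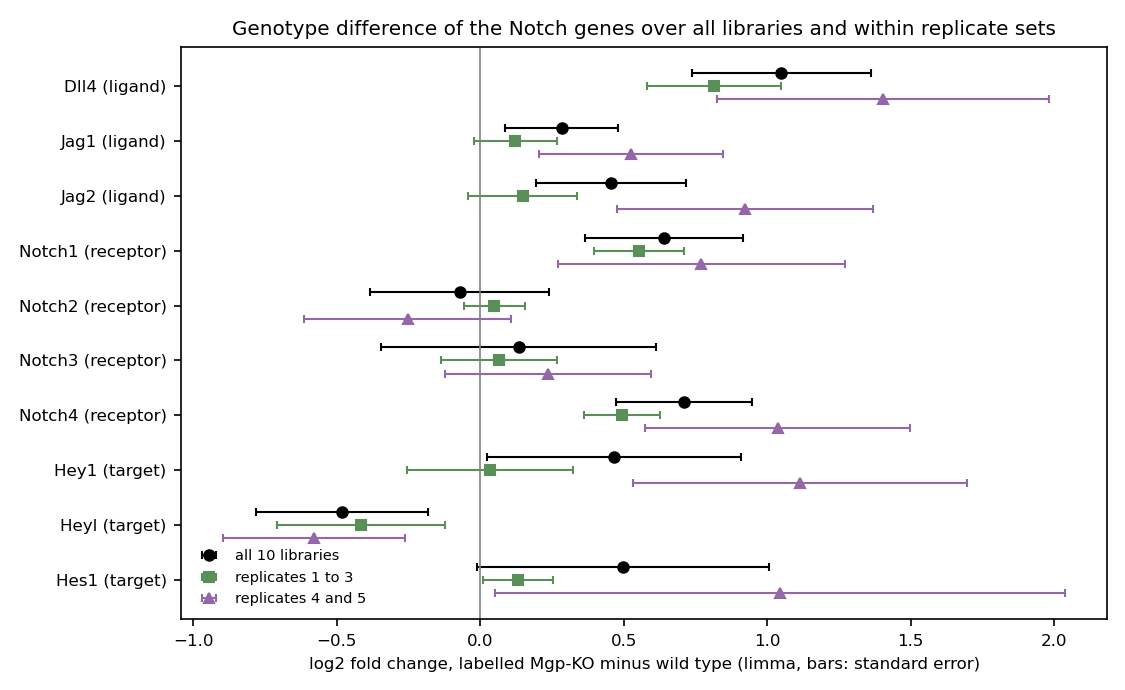
Log2 fold change of each Notch gene (horizontal axis, labelled *Mgp*-KO minus wild type, limma) over all 10 libraries and within replicates 1 to 3 and replicates 4 and 5, with bars for the standard error. *Dll4* lies at 1.05, 0.81 and 1.40, and *Heyl* below 0 in all 3 fits.

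The sets of replicates differed for several members apart from genotype. With genotype in the limma model, replicates 4 and 5 were lower than replicates 1 to 3 by an adjusted p under 0.05 for *Notch3* (−1.53, adjusted p = 0.000177), *Notch2* (−0.92, adjusted p = 0.000918) and *Heyl* (−0.71, adjusted p = 0.0212), and higher for *Hey1* (0.96, adjusted p = 0.0491). These were 4 of 10 members, beside 38.2% of all tested genes. A set term in the limma model left 0 members past the threshold for genotype, with *Dll4* at an adjusted p of 0.0981. At an unadjusted p under 0.05 it gave 4 members, *Dll4*, *Notch1* and *Notch4* as higher and *Heyl* as lower, beside 19.3% of all genes. DESeq2 with the set term called 1 member, *Dll4* (adjusted p = 0.0142), beside 7.42% of all genes. The difference of the genotype effect between the sets was tested by an interaction term and passed the threshold for 0 members, with a lowest adjusted p of 0.528 for *Jag2*, at an unadjusted p under 0.05 for 0 members, and for 1 of 13714 genes (0.00729%).

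Levels of different genes were compared as normalized counts per kb of exon (union of GENCODE exons). In wild type, *Hes1* stood highest at 211 ± 167 per kb, followed by *Heyl* at 122 ± 31.9, *Notch3* at 117 ± 62.0 and *Dll4* at 115 ± 34.6 (SD, n = 5). *Notch1* at 84.6 ± 23.6, *Notch4* at 78.7 ± 22.6 and *Jag1* at 74.7 ± 16.7 per kb formed the middle. *Jag2* at 54.0 ± 12.6, *Notch2* at 52.7 ± 15.0 and *Hey1* at 32.0 ± 17.8 per kb were lowest. Of the neighbours in this order, *Dll4* lay above *Notch1* in all 5 wild-type libraries, by 1.15-fold to 1.54-fold, and the other 8 pairs of neighbours crossed in at least 1 library. *Hes1* had 497 per kb in wild type 4 and 57.8 to 172 in the other wild-type libraries. In the labelled *Mgp*-KO libraries, *Hes1* at 270.3 ± 186 and *Dll4* at 243 ± 95.5 per kb had the highest means, and *Heyl* stood at the sixth place with 91.9 ± 41.7. The order of *Hes1* and *Dll4* was not fixed there. *Hes1* had 601 per kb in *Mgp*-KO 4 and 166 to 204 in the others, and *Dll4* lay above it in *Mgp*-KO 1 (258 against 195) and *Mgp*-KO 3 (261 against 184). The union of exons counts every annotated exon as used, so levels per kb are lower bounds where only some transcripts are made.

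**Figure D3:**
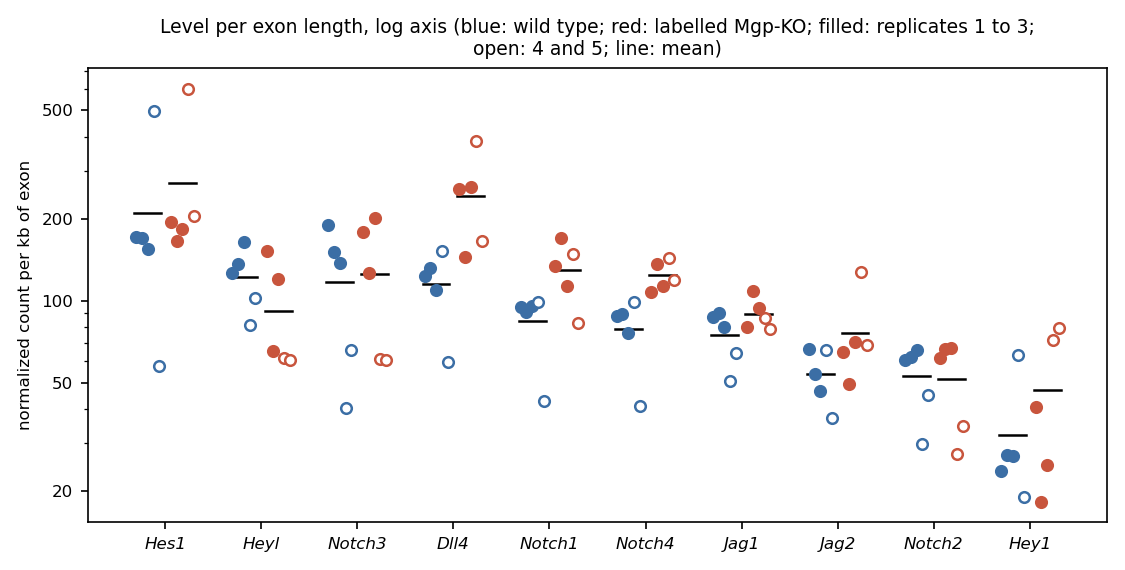
Normalized count per kb of exon (vertical log axis) of the 10 Notch genes in the order of their wild-type means. Points are libraries, blue for wild type and red for the labelled *Mgp*-KO group, and lines are means. The mean of *Dll4* is 115 per kb in wild type and 243 per kb in the labelled *Mgp*-KO libraries.

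Endothelial markers were also higher in most cases. Of 15 endothelial markers 14 had a log2 fold change above 0, with a median of 0.44 (0.21 in replicates 1 to 3 and 0.89 in replicates 4 and 5), and 0 passed the adjusted threshold in limma and in DESeq2, while 1, *Tie1* (0.53, SE 0.24), passed an unadjusted p of 0.05. With the replicate block in limma 1 marker was called, *Esam*, an adhesion molecule (0.73, adjusted p = 0.0478, and 0.482 without the block), beside 1.97% of all genes. *Pecam1*, which encodes the adhesion molecule CD31, had 3009 ± 786 and 4032 ± 1222 normalized counts, and *Cdh5*, VE-cadherin, had 5670 ± 925 and 7125 ± 1518 (SD, n = 5 each). The normalized counts summed over the list ranged from 26360 to 43740 in wild type and from 29910 to 77920 in the labelled *Mgp*-KO libraries, with the highest sum in *Mgp*-KO 4, and all of these markers were detected. In bulk tissue, a different number of cells of a type and a different amount of RNA per cell cannot be told apart, and the part of these markers in the differences of the Notch genes was not tested. The rescaling below takes the same amount from the log2 difference of every gene and cannot measure that part. All 8 arterial markers had a fold change above 0 (median 0.40), of which 0 passed the adjusted threshold in limma and 1, *Gja4*, passed it in DESeq2 (1.29, adjusted p = 0.0109). At an unadjusted p under 0.05 in limma were 2 of them, *Gja4*, a gap junction protein (log2 fold change 1.15, SE 0.31, or 1.50 within replicates 1 to 3 against 0.62 within replicates 4 and 5), and *Cxcr4*, a chemokine receptor (1.17, SE 0.39), both at differences above that of *Dll4*. Of 7 venous and lymphatic markers 5 lay above 0 (median 0.24), with 0 past the adjusted threshold in limma and in DESeq2 and 2 higher at an unadjusted p under 0.05, *Nr2f2* (0.74, SE 0.31) and *Flt4* (0.56, SE 0.22). The unadjusted counts of these 3 lists stand beside 10.4% of all tested genes in either direction, and the DESeq2 call of *Gja4* beside 2.26%.

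Across the 10 libraries, the log2 values of *Jag2* (Pearson's r = 0.949), *Hes1* (0.891), *Dll4* (0.827), *Hey1* (0.733), *Notch4* (0.673) and *Notch1* (0.548) went with the mean of the endothelial markers. Those of *Jag1* did not (−0.014), and *Notch3* (−0.380), *Heyl* (−0.517) and *Notch2* (−0.677) went against it. These are descriptions over libraries that share genotype, set and depth. *Jag2* and *Hes1* thus lay nearest to the endothelial markers, and *Heyl* and *Notch2* farthest from them.

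When each library was expressed relative to the mean of its endothelial markers, the log2 difference of *Dll4* was 0.62 (SE 0.29, adjusted p = 0.462 by limma). Relative values were −1.65, −1.50, −1.60, −1.82 and −2.26 for wild type, and for *Mgp*-KO 1 to 5 they were −0.78, −1.38, −0.77, −1.37 and −1.44. The groups of *Dll4* then did not overlap (exact permutation test, two-sided, p = 0.00794), which held for 14 genes (0.102% of those tested) in this direction and for 474 (3.46%) in the other. This scaling takes the same amount from the log2 difference of every gene, and the median of all genes moved from 0.03 to −0.41, so fewer genes can lie higher on this scale and more lower, and the sign of a difference follows from its size before scaling. *Notch4* differed by 0.28 and *Notch1* by 0.21 on this scale and their groups overlapped (exact permutation tests, two-sided, p = 0.286 and p = 0.508). Mean relative differences were 0.03 for *Jag2* (SE 0.25), 0.03 for *Hey1* (SE 0.37) and 0.06 for *Hes1* (SE 0.36), over values that ranged from −3.23 to −1.02 for *Hes1* in wild type and from −4.59 to −2.73 for *Hey1* in the labelled *Mgp*-KO libraries. *Heyl* lay at −0.91 (SE 0.46, adjusted p = 0.479), *Jag1* at −0.15 and *Notch3* at −0.30.

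**Figure D4:**
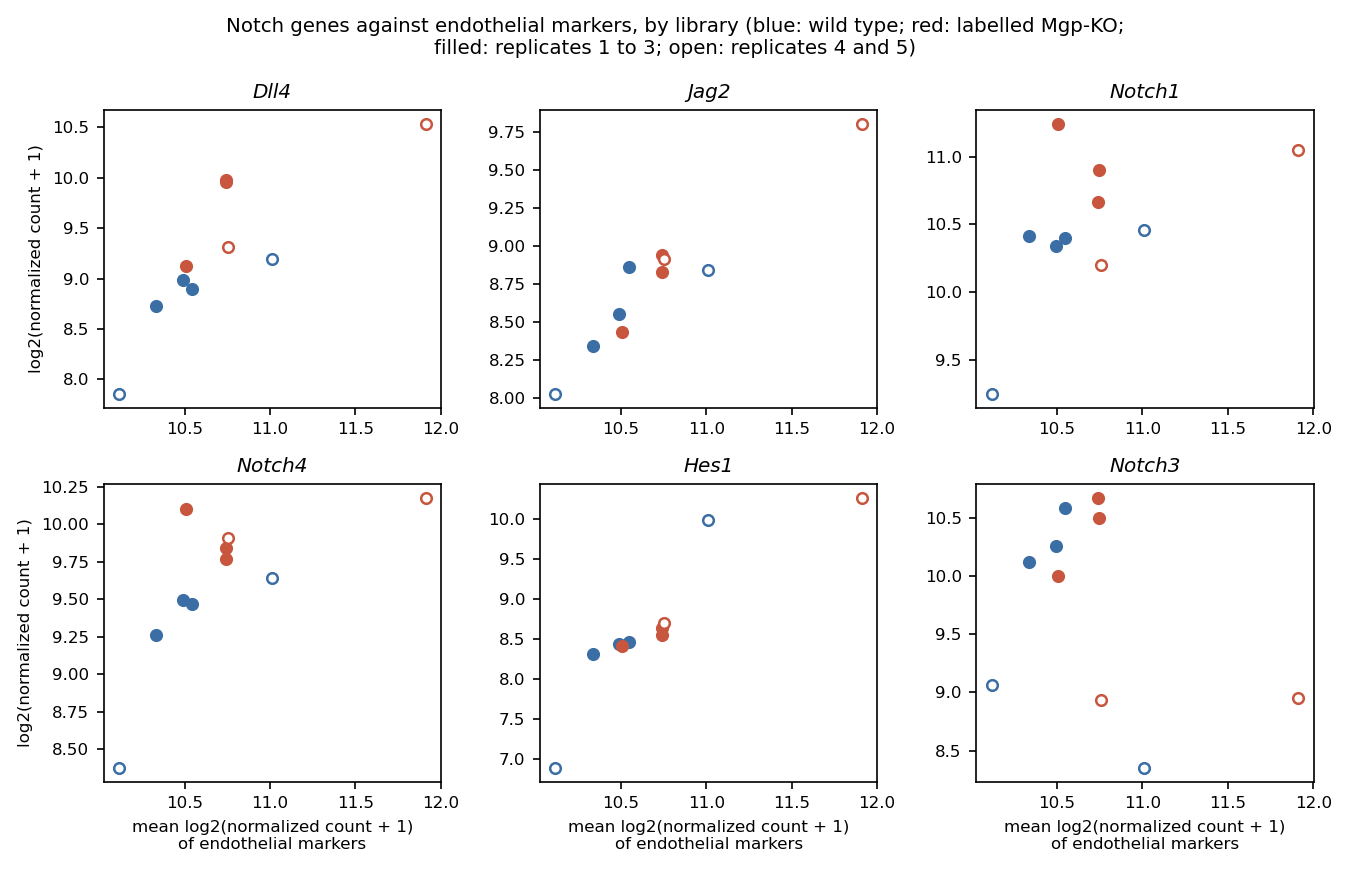
Log2(normalized count + 1) of 6 Notch genes (vertical axes) against the mean of the same quantity over the 15 endothelial markers (horizontal axes). Each point is 1 of 10 libraries, blue for wild type and red for the labelled *Mgp*-KO group, filled for replicates 1 to 3. *Jag2* follows the markers most closely (r = 0.949), the labelled *Mgp*-KO libraries have more *Dll4* relative to the markers than every wild-type library, and *Notch3* splits by replicate set.

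Mural markers, which label pericytes and smooth muscle, did not move in one direction: 5 of 10 had a fold change above 0, with a median of 0.02, 0 passed the adjusted threshold in limma and in DESeq2, and 1, *Cspg4*, a proteoglycan of pericytes, was lower at an unadjusted p under 0.05 (−0.98, SE 0.34, or −1.47 within replicates 1 to 3 against −0.25 within replicates 4 and 5). Of all tested genes, 10.4% passed that unadjusted level in either direction. The sum of the mural markers ranged from 11810 to 17120 in wild type and from 11680 to 15550 in the labelled *Mgp*-KO libraries. Relative to them, *Notch4* again did not overlap between the groups (exact permutation test, two-sided, p = 0.00794), which held for 1.33% of all genes in this direction. Markers of skeletal muscle and of red blood cells varied between libraries. The skeletal muscle list summed to 40.4 to 5550 normalized counts in wild type and to 36.1 to 30980 in the labelled *Mgp*-KO libraries, and the erythroid list to 6436 to 19940 and to 3009 to 101400. Brown adipocyte markers were lower in 9 of 10 cases (median −0.40), and 0 passed the threshold in limma over all libraries. There, *Ucp1* had an adjusted p of 0.0601 and *Dio2* of 0.363. Both passed in the limma fit with the set term (beside 2.36% of all genes) and in that with the replicate block (1.97%), and *Ucp1* passed in DESeq2 (2.26%). Their part in the differences of the Notch genes was not tested.

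The rest of the pathway was read from a list of 54 other Notch genes, of which 46 passed the filter on low values. Of these, 26 had a log2 fold change above 0, with a median of 0.06. In limma over all libraries 0 passed the adjusted threshold (at an unadjusted p under 0.05, *Maml2*, *Rbpj*, *Aph1c* and *Maml3* were higher and *Adam17* and *Dtx2* lower, beside 10.4% of all genes), 0 passed by DESeq2, and 1, *Maml2*, passed in limma with the set term, beside 2.36% of all genes. DESeq2 with the set term called 4 higher (*Maml2*, *Maml3*, *Rbpj* and *Cir1*) and 1 lower (*Adam17*), beside 7.42% of all genes. *Maml2* encodes a Mastermind-like coactivator of the Notch nuclear complex and had 152, 138.5, 134.5, 250.6 and 170 normalized counts in wild type. Its labelled *Mgp*-KO values were 240, 246, 264, 792 and 345. Its groups overlapped through wild type 4, and the log2 fold change was 1.03 (SE 0.22 and adjusted p = 0.0405 with the set term, adjusted p = 0.0298 with the replicate block and 0.265 with neither).

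*Rbpj*, the DNA-binding partner of every Notch receptor, had 169, 183, 171, 164 and 157.5 normalized counts in wild type 1 to 5. The labelled *Mgp*-KO libraries had 226, 283, 198, 296 and 216, without overlap, as for 1.39% of all tested genes in this direction. The means were 169 ± 9.58 and 244 ± 43.3 (SD, n = 5 each) and the log2 fold change was 0.51 (SE 0.17, adjusted p = 0.295 by limma, and 0.0339 by DESeq2 with the set term). *Dll1*, a further Delta-like ligand, had a log2 fold change of 0.14 (SE 0.25, adjusted p = 0.892), which was −0.25 within replicates 1 to 3 against 0.71 within replicates 4 and 5. Of the further targets, *Hey2*, an arterial repressor, had 0.65 (SE 0.48, adjusted p = 0.688), and *Nrarp*, a feedback inhibitor induced by Notch, had 0.06 (SE 0.39, adjusted p = 0.972).

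**Figure D5:**
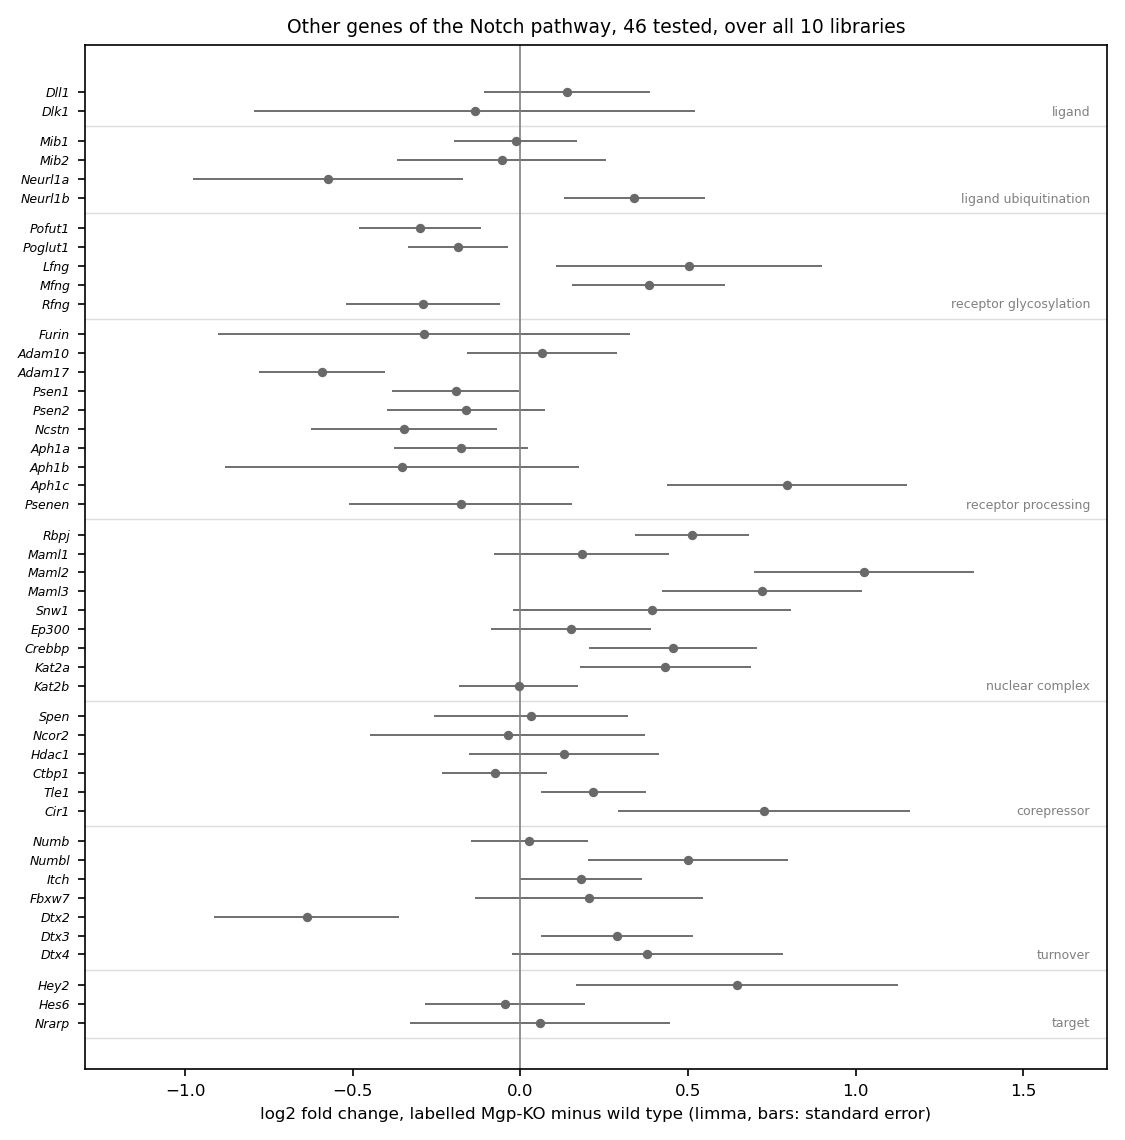
Log2 fold change (horizontal axis, labelled *Mgp*-KO minus wild type, limma over all 10 libraries) of the 46 other Notch pathway genes above the filter, grouped by role, with bars for the standard error. *Maml2* at 1.03 lies farthest to the right, and 26 of the 46 lie above 0.

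The tested genes whose log2 values were most like those of 4 members over the 10 libraries were found by Pearson's r. For *Dll4* they were *Pola2* (r = 0.974), *Actb* (0.969) and *Tie1* (0.954), an endothelial receptor kinase that is among the 15 markers. For *Notch1* they were *Gatsl3* (0.974), *Rgp1* (0.966) and *Caskin2* (0.958). *Notch3* was closest to *Arhgef7* (0.986), *Gm20412* (0.978) and *Pm20d2* (0.975), and *Hes1* to *Pdgfb* (0.975), *Prkd2* (0.966) and *Rgcc* (0.961). The highest values among 13714 genes over 10 libraries that share sets and depth are large for any gene, and the median absolute r over all genes was 0.331 for *Dll4* and 0.536 for *Notch3*. Among the members themselves, *Notch2* and *Notch3* were most alike (r = 0.910), followed by *Notch1* and *Notch4* (0.892) and by *Dll4* and *Jag2* (0.878).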

How the data were processed

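The 10 libraries were grouped by the genotype in their labels. Per the labels and the methods, the authors aligned single-end reads (50 bases) to mm10 with STAR and deposited a signal per gene, counts divided by DESeq2 size factors (normalized counts). The annotation release and strand setting were not found in the sources used here. All values (100%, tolerance 0.01 reads) were whole multiples of 1 read, so reads were recovered. One read was worth 0.715 to 1.73 normalized counts. Counting precision does not cover library preparation, because the reads carried no molecular identifiers and so are not independent. P-values set the difference between the groups against the spread between these libraries. In fits without a set term or replicate block, that spread includes the difference between the sets of replicates.

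Differences were tested in R 4.3.3 with limma 3.58.1 (lmFit, eBayes with trend) on log2(normalized count + 1), a scale that understates the change of low genes, with Benjamini-Hochberg adjustment over 13714 genes with a mean of at least 10. Exact permutation tests covered single members. Alternatives used edgeR 4.0.16 and DESeq2 1.42.0 on recovered reads, other pseudocounts (0.5 and 10), filters (none and a mean of 50), scalings and library subsets, and 3 were chosen after seeing the data: the endothelial scaling with a set term or in replicates 1 to 3, and the mural scaling with a set term. Fits were tested on simulated data. The members and the marker and pathway lists were chosen with earlier results of these data known. Genes named are the members, other pathway genes past the threshold in limma without or with a set term, *Dll1*, *Rbpj*, *Hey2*, *Nrarp*, marker genes beside a result, *Mgp*, and the 3 genes most like *Dll4*, *Notch1*, *Notch3* and *Hes1*. *Xist*, the transcripts that overlap members, *Aph1c*, *Maml3*, *Adam17*, *Dtx2*, *Cir1* and the pair values among members were added after their values were seen. Promoters came from RefSeq, gene positions and exon lengths from GENCODE (GRCm38).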

Additional observations from a re-analysis of the deposited data

Results flagged for a closer look

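In 5 of the 20 member and group combinations, the highest or lowest library stood apart from its group by a gap that took more than 0.71 of the range, the 95% critical value of Dixon's test for 5 libraries. The rule was applied to normalized counts. On the log2 scale of the fits, the gap of a highest library takes a smaller share of its range. The share of all tested genes past this rule was not counted. Members and libraries are not independent either, so the 5 are a description only. The highest library for *Jag2* in the group labelled *Mgp*-KO was replicate 4, with 892 normalized counts against 491 in the next, a gap of 0.733 of the range. For *Notch1*, the lowest wild-type library was replicate 5, with 607 against 1293 (0.859). *Hey1* was highest in wild type 4, with 207 against 88.4 (0.820). *Hes1* was highest in replicate 4 of both groups, with 1013 against 351 in wild type (0.740) and 1225 against 416 in the group labelled *Mgp*-KO (0.913). All of these libraries are from replicates 4 and 5, which had fewer reads and a higher share of mitochondrial ribosomal RNA, and the part of that in these values was not tested.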

How the results depend on the processing

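Of 300 member values under 30 other settings, 272 kept their direction and their side of the threshold, 7 gained a call and 21 turned direction. The count of members past the threshold, 0 in limma over all libraries, was 1 (*Dll4*) with the replicate block in limma (log2 fold change 1.05, adjusted p = 0.0404, beside 1.97% of all genes), with the replicate block in edgeR (1.05, adjusted p = 0.0454, beside 1.62%), in DESeq2 and in DESeq2 with the set term (1.07, adjusted p = 0.0142, beside 7.42%), and 3 in DESeq2 on replicates 1 to 3. It was 0 without each library in turn, with *Dll4* at 0.83 to 1.21 (adjusted p 0.211 to 0.465). Same-numbered libraries correlated in their deviations from group means with r = 0.527, 0.056, 0.327, 0.523 and 0.514, and after removal of set means with 0.042, −0.202, −0.398, 0.223 and 0.223. Pairs 4 and 5 correlated best with their own number and pairs 1, 2 and 3 better with another. What a number marks was not found in the sources used here, and not every r passed 0.1, so the block was kept as an alternative. No other member's call changed with the replicate block. By the construction of the endothelial scaling, which takes the same amount from every gene, values turned for *Jag1* (−0.15, also with the set term, and −0.08 in replicates 1 to 3) and *Notch3* (−0.30 in both, and −0.14), and in replicates 1 to 3 for *Jag2* (−0.06), *Hey1* (−0.17) and *Hes1* (−0.08). Direction turned for *Notch2* in replicates 1 to 3 (0.05 in limma, 0.04 in DESeq2) and without the libraries labelled *Mgp*-KO 4 and 5 (0.36), a subset unbalanced by set, and there for *Hey1* (−0.13). Leaving out 1 library gave −0.26 to 0.13 for *Notch2* and −0.20 to 0.36 for *Notch3*. All these values had an adjusted p above the threshold, and the cause of the turns outside the endothelial scaling was not tested. Depth limits *Hey1* most (36 to 222 reads).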
